A study of Mus musculus with 18 samples.

Results

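The mitochondrial genome of the mouse encodes 13 proteins, and the counts of their genes were followed in mouse embryonic stem cells (ESCs) and epiblast-like cells (EpiLCs) exposed to Δ9-tetrahydrocannabinol (Δ9-THC). The members were taken by name, as every gene of the count tables whose symbol starts with mt-Nd, mt-Co, mt-Cytb or mt-Atp. This gave 10 of the 13104 genes of the ESC table, and the same 10 among the 13717 genes of the EpiLC table. They are mt-Nd1, mt-Nd2, mt-Nd4, mt-Nd5, mt-Nd6, mt-Cytb, mt-Co1, mt-Co2, mt-Co3 and mt-Atp6. The genes mt-Nd3, mt-Nd4l and mt-Atp8 have no row in either table and so were not analysed here. On the mitochondrial genome (GRCm38, GENCODE M21) the members run from mt-Nd1 at chrM:2751-3707 to mt-Cytb at chrM:14145-15288, and each is a single exon without introns.

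The 12 libraries fall into 4 groups with 3 biological replicates each. All cultures came from mouse ESCs with the transgenic germline reporters Blimp1::mVenus and Stella::ECFP, which were grown in naive conditions (2i and LIF) and turned into EpiLCs with activin A and bFGF. The study held a female and a male clone and names the female cells as its main source, and the labels name no clone. Exposure to Δ9-THC, the main psychoactive compound of cannabis, was at 100 nM and continuous, so that exposed EpiLCs came from ESCs that had already been exposed, and the controls received the ethanol vehicle. The labels also name 6 libraries of primordial germ cell-like cells, which were not analysed here.

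Mitochondrial DNA is a small circle present in many copies per cell. Both of its strands are transcribed into long precursors by a dedicated RNA polymerase, and the precursors are cut into messenger, ribosomal and transfer RNAs, many of them at the transfer RNAs that lie between the genes. All of the encoded proteins are core parts of the respiratory chain or of the ATP synthase, which they form together with subunits made from nuclear genes, and naive and primed pluripotent cells are known to differ in how far they use respiration.

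Messenger RNA was captured by its poly(A) tail, and the values are whole-number counts that the authors had adjusted with ComBat-seq, a batch correction, in each cell type separately. CPM below is a gene's count relative to its library's total (counts per 1e6) after TMM scaling. The totals lay between 23427551 and 32096698 counts per library. The labelled cell types matched their markers. The summed level of 6 naive markers was 2963 to 3123 CPM in ESCs and 97.0 to 122 CPM in EpiLCs, and that of the EpiLC markers was 154 to 174 CPM in ESCs (5 of 6 measured) and 1731 to 2112 CPM in EpiLCs (6 of 6 measured). Of the markers of other lineages, 1 of 4 endoderm genes was measured (0.911 to 3.39 CPM), 1 of 3 trophoblast genes (Tfap2c, which ESCs also express, 18.3 to 135 CPM) and 2 of 3 fibroblast genes in ESCs and 3 of 3 in EpiLCs (5.65 to 15.3 CPM summed). The adjusted tables have a feature that touches every result below. In each cell type, a vehicle library that lay above its group's mean for a gene was matched by a Δ9-THC library of the same replicate number that lay below its own mean. Over all genes the deviations of same-numbered libraries had correlations between -0.977 and -0.987 in ESCs and between -0.979 and -0.985 in EpiLCs (3 pairs each, across genes). Among the members, 28 of 30 such pairs in ESCs and 30 of 30 in EpiLCs lay on opposite sides of their means. The tests below take the libraries as independent, although same-numbered libraries were tied in this way, and the SDs between replicates are those left after the authors' adjustment.

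Much of the mitochondrial genome has copies in the nuclear chromosomes, which bears on the reads that can be counted. The alignment kept only reads with a single best place in the genome, so a read pair that matched a mitochondrial gene and a nuclear copy equally well was left out. In the GENCODE M21 annotation of GRCm38, 7 nuclear pseudogenes lie side by side on the minus strand of chromosome 1 between 24611535 and 24616197, a span of 4663 bases. They repeat, in the same order, mt-Nd4 (Gm28439, bases 1 to 876 of the gene), mt-Nd4l (Gm10222), mt-Nd3 (Gm28438), mt-Co3 (Gm28437), mt-Atp6 (Gm10925), mt-Co2 (Gm28661) and the last part of mt-Co1 (Gm29216, bases 1054 to 1545). The copies of mt-Nd4, mt-Nd4l, mt-Co3, mt-Atp6 and mt-Co2 had 0 mismatches to the mitochondrial gene over their length, that of mt-Nd3 had 1 and that of mt-Co1 had 6. A second, full-length copy of mt-Co1, Gm13340 on chromosome 2 between 22588103 and 22589647, had 37 mismatches over 1545 bases (97.6% identity).

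The first bases of 3 genes show what an aligner had to work with. They are given 5′ to 3′ in the sense of the gene, in lower case, with the positions that differ between gene and copy in capitals. The first pair is mt-Co2 (chrM:7013-7072) and its copy (chr1:24615506-24615565, minus strand), shown because nothing in it tells the gene from the copy. The next is mt-Nd3 (chrM:9459-9518) and its copy (chr1:24613060-24613119, minus strand), which differ by T3C, counted from 1 at the first base of the gene. The last is mt-Co1 (chrM:5328-5417) and its copy on chromosome 2 (chr2:22589558-22589647, minus strand), which differ by C54A, A60G and G87A.
mt-Co2: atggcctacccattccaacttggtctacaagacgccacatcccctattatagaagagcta
Gm28661: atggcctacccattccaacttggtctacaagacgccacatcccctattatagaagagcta
mt-Nd3: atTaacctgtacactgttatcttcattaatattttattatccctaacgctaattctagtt
Gm28438: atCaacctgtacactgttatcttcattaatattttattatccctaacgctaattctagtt
mt-Co1: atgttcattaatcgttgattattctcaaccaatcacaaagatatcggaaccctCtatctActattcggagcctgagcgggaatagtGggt
Gm13340: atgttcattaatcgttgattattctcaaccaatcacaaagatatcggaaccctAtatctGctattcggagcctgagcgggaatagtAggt

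Each gene was cut into all windows of 150 bases, the length of a read, and each window was looked up in the annotated nuclear transcripts. An identical copy was found for 99.4% of the windows of mt-Co2, 99.4% of mt-Atp6 and 99.8% of mt-Co3. The share was 59.2% for mt-Nd4 and 23.6% for mt-Co1, and 0% for mt-Nd1, mt-Nd2, mt-Nd5, mt-Nd6 and mt-Cytb. Of the genes that were not analysed, mt-Nd3 had 97.0% and mt-Nd4l 98.0% of windows with an identical copy. No annotated copy was found for mt-Atp8, which lies between mt-Co2 and mt-Atp6. The 2 copies on either side are 233 bases apart on chromosome 1, and the 2 genes are 230 bases apart on the mitochondrial genome. The annotated copy of mt-Co2 ends at base 681 of the gene's 684, so these intervals do not start at the same base.

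The levels of the members fell into 2 widely separated ranges that followed these shares. Levels of different genes were compared per length, as CPM per kb. In vehicle ESCs, mt-Co1, which encodes the catalytic subunit of cytochrome c oxidase (complex IV), had the highest level at 5783 ± 510 CPM per kb (SD, n = 3). It was followed by mt-Nd1, a membrane subunit of NADH dehydrogenase (complex I), at 2062 ± 93.03 CPM per kb and by mt-Cytb, the cytochrome b of complex III, at 2049 ± 77.9 CPM per kb. These 2 did not differ beyond their ranges. The complex I subunits mt-Nd2 (982 ± 82.5 CPM per kb) and mt-Nd5 (809 ± 83.3 CPM per kb) overlapped each other, as did mt-Nd4 (598 ± 35.8 CPM per kb) and mt-Nd6 (580 ± 42.2 CPM per kb).

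The other 3 members had almost no counts on this scale. The level was 8.599 ± 1.84 CPM per kb for mt-Co2 and 5.998 ± 1.01 CPM per kb for mt-Co3, both of which encode core subunits of complex IV. It was 5.35 ± 1.14 CPM per kb for mt-Atp6, the subunit of the ATP synthase membrane part through which protons pass. The lowest of the 7 other members was 67.5-fold above the highest of these 3 in vehicle ESCs and 74.7-fold above it in vehicle EpiLCs. In EpiLCs the order was mt-Co1 (12839 CPM per kb), mt-Cytb (4351), mt-Nd1 (4317), mt-Nd2 (2175), mt-Nd5 (1884), mt-Nd6 (1436), mt-Nd4 (1414), mt-Co2 (18.9), mt-Co3 (18.3) and mt-Atp6 (16.4). There, mt-Co1 was separate from the members below it, mt-Cytb overlapped mt-Nd1, and the members from mt-Nd2 to mt-Nd4 overlapped their neighbours, as did the last 3. The 3 members with few counts are those for which more than 99% of windows had an identical nuclear copy, and the part of the copies in their low counts was not tested.

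**Figure D1:**
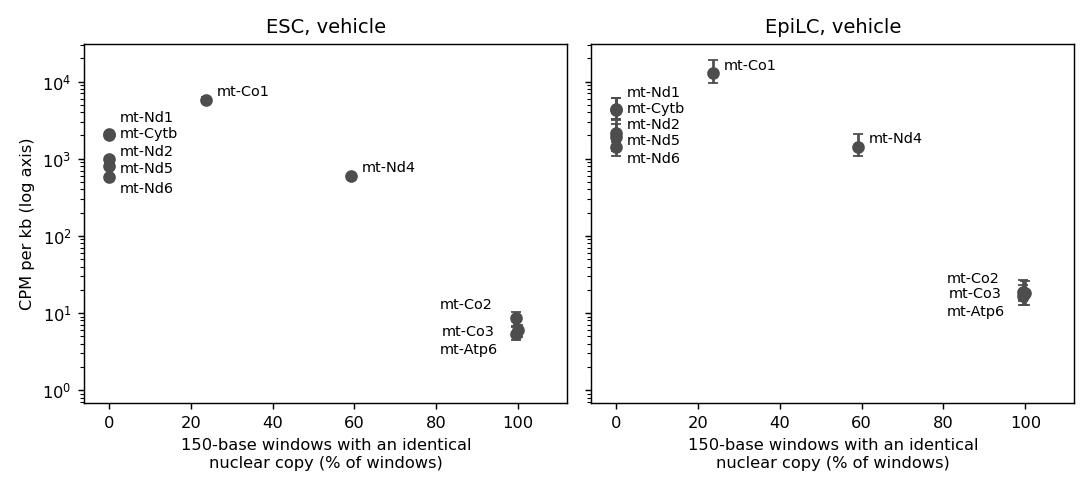
Level of each of the 10 mitochondrial protein-coding genes in vehicle ESCs (left) and vehicle EpiLCs (right) as CPM per kb on a log axis, against the percent of its 150-base windows with an identical copy among annotated nuclear transcripts. Points are means of 3 libraries and bars run from the lowest to the highest library; mt-Co2, mt-Co3 and mt-Atp6 lie at the lower right, at 5.35 to 8.599 CPM per kb in ESCs, and the other 7 at 580 or more.

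The nuclear copies of these 3 genes had more counts than the genes themselves. In ESCs, the mean over 6 libraries was 281 counts for Gm28661 and 176 for mt-Co2, 421 for Gm10925 and 114 for mt-Atp6, and 266 for Gm28437 and 160 for mt-Co3. The ratio of copy to gene was therefore 1.59, 3.70 and 1.66, and in EpiLCs it was 1.77, 3.86 and 1.71. For genes with windows of their own the counts went the other way, with 172 counts for Gm29216 against 254538 for mt-Co1 and 72.3 for Gm28439 against 22657 for mt-Nd4 in ESCs. Counts of mt-Co2, mt-Co3 and mt-Atp6 are therefore uncertain between gene and copy, and are given below as counted. Per kb of windows without an identical copy, mt-Nd4 stood at 1640 CPM in vehicle ESCs and stood between mt-Cytb and mt-Nd2 (a scale added after the data were seen). The base composition of the members is low in G and C. It ranged from 34.1% for mt-Nd6 to 39.9% for mt-Co1 (median 37.4%). Over the genes of the ESC table the median was 49.7% and the 5th percentile 39.4%, so offsets for the members rest on the edge of the GC range.

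The share of all counts that fell on the 10 members was compared first, since it shows the mitochondrial messenger RNAs as a whole. Vehicle ESCs had 1.86%, 1.69% and 1.604% of counts on the members, and exposed ESCs 1.61%, 1.77% and 1.86%. The groups covered the same range. Their means were 1.72% ± 0.131 (SD, n = 3) and 1.75% ± 0.127, a difference of 0.0310 percentage points (two-sided exact permutation test, p = 0.7, where 3 libraries against 3 cannot go below 0.1). The sign of this difference turned without vehicle replicate 3 (-0.0255) and without Δ9-THC replicate 3 (-0.0259). Here and below, a share of counts in bulk RNA cannot tell a change in RNA per cell from a change in the mix of cells.

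In EpiLCs the share varied far more between libraries of the same group. Vehicle libraries had 2.97%, 2.81% and 5.26% of counts on the members, and exposed libraries 5.22%, 5.46% and 2.50%. Each group thus held libraries of both kinds, and the vehicle replicate with the high share had the number of the exposed replicate with the low share. The highest library was 1.88-fold above the lowest in the vehicle group and 2.18-fold in the exposed group, while in ESCs these ratios were 1.16 and 1.16. The means were 3.68% ± 1.37 and 4.39% ± 1.64 (exact permutation test, p = 0.9). The difference of 0.716 percentage points ranged from 0.185 to 1.66 when each library was left out in turn. It was 1.51 without vehicle replicate 3 and 1.66 without Δ9-THC replicate 3, and 0.185 to 0.361 without any 1 of the other 4 libraries. Within replicate numbers the exposed minus the vehicle library gave 2.26, 2.65 and -2.76 percentage points in EpiLCs and -0.250, 0.0850 and 0.258 in ESCs. The mean of a same-numbered pair hardly varied, from 1.73% to 1.74% in ESCs and from 3.88% to 4.13% in EpiLCs.

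**Figure D2:**
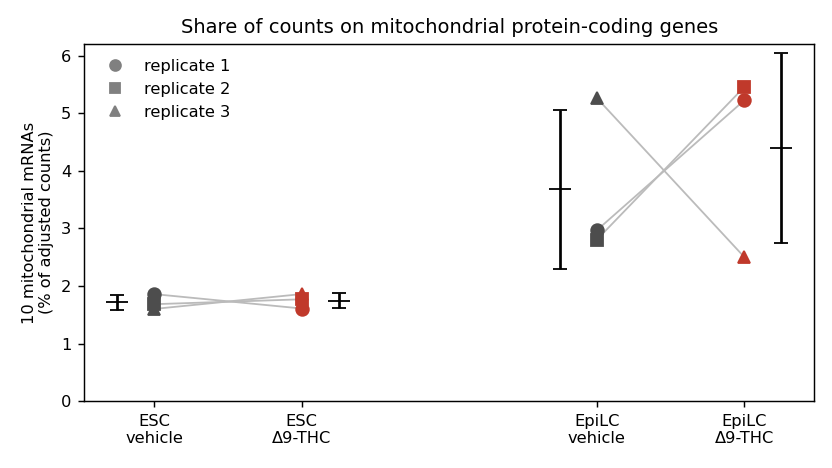
Percent of adjusted counts on the 10 mitochondrial protein-coding genes in each of the 12 libraries, with grey lines joining libraries of the same replicate number and, beside each group, its mean and SD (n = 3). ESC libraries lie between 1.604% and 1.86%; EpiLC libraries lie between 2.50% and 5.46%, and the lines cross.

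A further transcript took a large and uneven share of the counts. ENSMUSG00000119584, an identifier that has no entry in the annotation used, held 0.477% to 0.639% of counts in vehicle ESCs and 2.46% to 3.19% in exposed ESCs. In EpiLCs it held 0.779%, 2.19% and 3.88% in vehicle libraries and 3.97%, 1.79% and 0.418% in exposed libraries. Without it in the total, the share of the members was 1.73% ± 0.132 and 1.80% ± 0.131 in ESCs (exact permutation test, p = 0.7) and 3.78% ± 1.47 and 4.50% ± 1.73 in EpiLCs (exact permutation test, p = 0.9). The single gene mt-Co1 made up 49.97% to 54.1% of the members' counts in the 12 libraries. The sum of the 9 other members was 0.808% ± 0.0481 and 0.824% ± 0.0481 of counts in ESCs (exact permutation test, p = 0.7), a comparison added after the data were seen.

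Whether Δ9-THC changed single members in ESCs was tested with edgeR's quasi-likelihood test over all 13104 genes, at an adjusted p of at most 0.05. Of the 10 members, 1 passed (mt-Nd6, higher), where 6.91% of all genes did, 3.37% of them higher. The log2(fold-change) was above 0 for 8 members and below 0 for 2, with a median of 0.11, against a median of 0.0041 over all genes. The groups did not overlap for 2 members, mt-Nd6 and mt-Co3, both higher. Both also had an unadjusted p under 0.05, as did 28.7% of all genes. Separate groups were found for 32.6% of all genes, and 16.7% were separate and higher. The members' share of calls was thus close to that of all genes. With 10 members, the shares of separate groups are too coarse to set the members apart from all genes.

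The gene that passed is the exception in the layout of the genome. mt-Nd6 (ENSMUSG00000064368, chrM:13552-14070) encodes a membrane subunit of complex I and is annotated on the opposite strand to the 12 other protein-coding genes. Its level was 323, 301 and 279 CPM in vehicle ESCs and 366, 395 and 424 CPM in exposed ESCs. Every exposed library lay above every vehicle library. The means were 301 ± 21.9 and 395 ± 29.0 CPM (SD, n = 3), giving a log2(fold-change) of 0.39 with an SE of 0.070 (edgeR, Benjamini-Hochberg adjusted p = 0.0357).

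Several values stood beside this call. The reads were counted without regard to strand, so RNA of mt-Nd6 cannot be told from RNA of the other strand at the same place, and its 3′ end shares 14 bases with mt-Nd5. With offsets that remove each library's trend with GC content and length, the log2(fold-change) of mt-Nd6 was 0.043 and the call was lost (edgeR, adjusted p = 0.648). Over 13083 genes the log2(fold-change) in ESCs had a rank correlation with GC content of -0.54, given as a description. Over all genes, 2 of the 906 calls passed with the offsets. The call of mt-Nd6 was also lost without any 1 of the 6 libraries, where its log2(fold-change) was 0.34 to 0.45 with adjusted p-values of 0.0721 to 0.134 (edgeR) and 0 to 1 of all genes passed.

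mt-Nd6 also grew as a part of the mitochondrial messenger RNAs. It made up 1.78%, 1.82% and 1.76% of the members' counts in vehicle ESCs and 2.23%, 2.18% and 2.25% in exposed ESCs. This share comes from the same counts as the call above, without the GC and length offsets. The gap between the groups was many times the spread left within them after the authors' adjustment. The means were 1.78% ± 0.0311 and 2.22% ± 0.0350 (exact permutation test, p = 0.1, the smallest that this design allows). No such gap was seen in EpiLCs, where the same share was 1.90%, 2.01% and 2.04% in vehicle and 2.02%, 1.95% and 1.83% in exposed libraries (exact permutation test, p = 0.6). Whether the cell types differ on this scale was not tested.

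Both ribosomal RNA genes of the mitochondrial genome and 1 of its 22 transfer RNA genes, mt-Tp, were also measured. mt-Tp spans 67 bases, fewer than the 150 of a read, and was counted without regard to strand. Its counts therefore cannot be told from those of longer RNAs or of the other strand. The ribosomal RNA gene mt-Rnr1 had 135, 134 and 159 CPM with the vehicle and 207, 209 and 174 CPM with Δ9-THC, giving a log2(fold-change) of 0.47 with an SE of 0.095 (edgeR, adjusted p = 0.0420). The transfer RNA gene mt-Tp had 6.58, 3.50 and 3.92 CPM against 11.8, 18.6 and 17.9 CPM, giving a log2(fold-change) of 1.77 with an SE of 0.27 (edgeR, adjusted p = 0.0301). For the larger ribosomal RNA, mt-Rnr2, the log2(fold-change) was 0.16 (SE 0.071, edgeR, adjusted p = 0.197) and the groups overlapped. Neither call held without any 1 library (edgeR, adjusted p = 0.0806 to 0.138 for mt-Rnr1 and 0.0721 to 0.134 for mt-Tp) or with the GC and length offsets. With the offsets the log2(fold-change) was 0.19 for mt-Rnr1 (edgeR, adjusted p = 0.546) and 1.45 for mt-Tp (edgeR, adjusted p = 0.103). With the replicate number as a block in the fit, 5 of all genes passed. mt-Tp was among them (log2(fold-change) 1.79, edgeR, adjusted p = 0.0163) and mt-Rnr1 was not (edgeR, adjusted p = 0.351). These 3 genes together held 0.0887% ± 0.00476 of counts in vehicle and 0.101% ± 0.00479 in exposed ESCs, without overlap (exact permutation test, p = 0.1). The share of ENSMUSG00000119584, given above, was also higher in every exposed than in every vehicle ESC library. Libraries were made with either of 2 kits from RNA selected by its poly(A) tail, and which library was made with which kit is not given in the sources used here. The part of RNA selection in the level of mt-Nd6 was not tested.

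The other complex I members in ESCs did not pass. mt-Nd1 had 2016, 2032 and 1870 CPM with the vehicle and 2003, 1991 and 2166 CPM with Δ9-THC (log2(fold-change) 0.06, SE 0.049, edgeR, adjusted p = 0.484). mt-Nd2 had 1048, 1087 and 923 CPM against 963, 928 and 1090 CPM (log2(fold-change) -0.04, SE 0.081, edgeR, adjusted p = 0.803). The groups of both overlapped.

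mt-Nd4 had 871, 826 and 773 CPM with the vehicle and 761, 806 and 861 CPM with Δ9-THC (log2(fold-change) -0.02, SE 0.060, edgeR, adjusted p = 0.826). mt-Nd5, the longest member, had 1641, 1443 and 1342 CPM against 1458, 1670 and 1782 CPM (log2(fold-change) 0.15, SE 0.096, edgeR, adjusted p = 0.352). In both genes the libraries of each group spanned much of the range of the other. As a part of the members' counts mt-Nd4 was 4.88% ± 0.103 in vehicle and 4.56% ± 0.0943 in exposed ESCs, without overlap, which is the opposite direction to mt-Nd6.

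For complex III, mt-Cytb had 2442, 2268 and 2321 CPM in vehicle ESCs and 2355, 2541 and 2498 CPM in exposed ESCs (log2(fold-change) 0.07, SE 0.043, edgeR, adjusted p = 0.317). For complex IV, mt-Co1 had 9837, 8582 and 8385 CPM against 8468, 9748 and 9981 CPM (log2(fold-change) 0.07, SE 0.085, edgeR, adjusted p = 0.610). The groups of both genes overlapped.

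The 3 members with an identical nuclear copy over nearly their whole length had larger differences on few counts. mt-Co3 had 3.87, 5.44 and 4.80 CPM with the vehicle and 8.34, 6.16 and 7.003 CPM with Δ9-THC, from 127 to 199 counts per library. Its groups did not overlap, and its log2(fold-change) of 0.61 was the largest among the members (SE 0.16, edgeR, adjusted p = 0.0649). It passed with DESeq2 (adjusted p = 0.0241), which called 2 of 10 members and 5.79% of all genes. With the GC and length offsets its log2(fold-change) was 0.39 (edgeR, adjusted p = 0.264). Its copy Gm28437 had a log2(fold-change) of 0.69 (SE 0.18, edgeR, adjusted p = 0.0613), and with the counts of gene and copy added the value was 0.66 (SE 0.17, edgeR, adjusted p = 0.0595).

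mt-Co2 had 4.598, 7.11 and 5.93 CPM against 8.76, 5.59 and 7.04 CPM (log2(fold-change) 0.28, SE 0.21, edgeR, adjusted p = 0.433). mt-Atp6 had 3.05, 4.52 and 3.36 CPM against 5.53, 3.65 and 5.12 CPM (log2(fold-change) 0.38, SE 0.21, edgeR, adjusted p = 0.271). The groups of both genes overlapped, and Δ9-THC replicate 1 was the highest of the 6 libraries in each. With the counts of their copies added, the values were 0.48 for mt-Co2 (adjusted p = 0.276) and 0.57 for mt-Atp6 (adjusted p = 0.142, edgeR, SE 0.26 and 0.21). Adding the copies was chosen after the data were seen.

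The direction of the ESC differences depended on how base composition was treated. Without offsets 8 of 10 members had a positive log2(fold-change), and with the GC and length offsets 4 did. mt-Nd1 went from 0.06 to -0.18, mt-Cytb from 0.07 to -0.13, mt-Co1 from 0.07 to -0.10 and mt-Nd5 from 0.15 to -0.07, while mt-Co2 went from 0.28 to 0.04 and mt-Atp6 from 0.38 to 0.10. The values furthest below 0 with the offsets were those of mt-Nd2 and mt-Nd4. mt-Nd2 went from -0.04 to -0.31 (edgeR, adjusted p = 0.0814 with the offsets) and mt-Nd4 from -0.02 to -0.28 (adjusted p = 0.0645). For mt-Nd1 the adjusted p with the offsets was 0.0814 (edgeR). None of the 10 passed with the offsets, and the median over all genes was 0.0041 without them and 0.00070 with them.

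**Figure D3:**
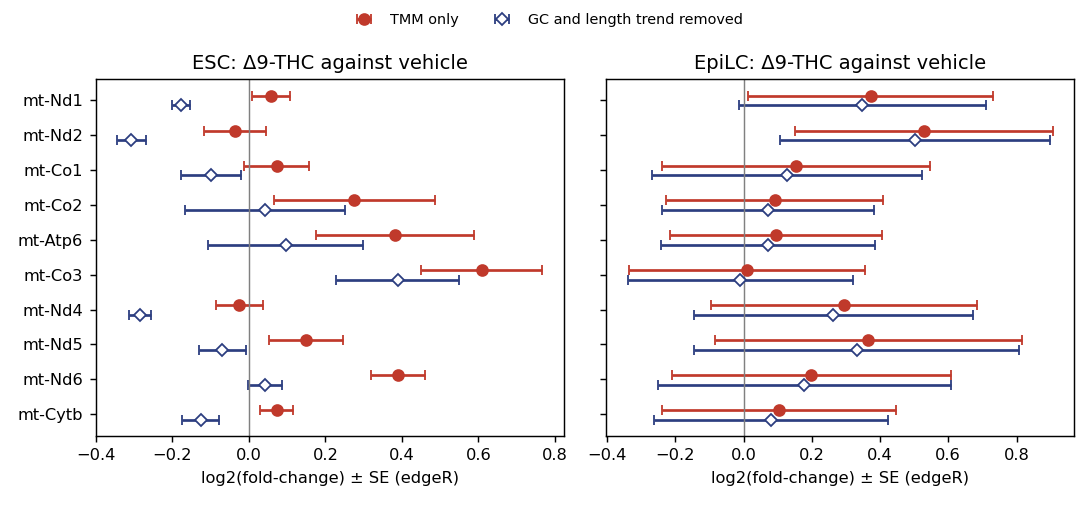
Log2(fold-change) of each member, Δ9-THC against vehicle, with an SE derived from edgeR's F statistic, in ESCs (left) and EpiLCs (right), 3 libraries per group. Filled red circles are the fit with TMM scaling and open blue diamonds the fit with GC and length offsets. In ESCs mt-Nd6 moves from 0.39 to 0.043. In EpiLCs the bars are wider, by the least for mt-Co2, mt-Atp6 and mt-Co3, and the 2 fits lie close together.

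In EpiLCs all 10 members had a positive log2(fold-change) and 0 passed, as did 0 of all 13717 genes (0% called with edgeR, and 15.1% at an unadjusted p under 0.05, where the members had 0). With DESeq2, 87 genes (0.634%) and 0 members passed. The median over the members was 0.18, against 0.0030 over all genes, and the groups overlapped for every member, while they were separate for 21.8% of all genes. The shared sign rested on single libraries. Without vehicle replicate 1, vehicle replicate 2, Δ9-THC replicate 1 or Δ9-THC replicate 2, the members above 0 numbered 6, 5, 4 and 5 of 10. The same libraries were high for each member. mt-Co1 had 15674, 14741 and 29092 CPM with the vehicle and 26561, 27493 and 12153 CPM with Δ9-THC, giving a log2(fold-change) of 0.15 with an SE of 0.39 (edgeR, adjusted p = 0.885).

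The largest difference in EpiLCs was that of mt-Nd2, with 1712, 1785 and 3275 CPM against 4048, 3917 and 1807 CPM and a log2(fold-change) of 0.53 with an SE of 0.38 (edgeR, adjusted p = 0.555). mt-Nd1 had 3373, 3088 and 5933 CPM against 6280, 6639 and 3123 CPM (log2(fold-change) 0.37, SE 0.36, edgeR, adjusted p = 0.670), and mt-Nd5 had 2327, 2795 and 5188 CPM against 5959, 5215 and 2106 CPM (log2(fold-change) 0.37, SE 0.45, edgeR, adjusted p = 0.746). Vehicle replicate 3 and Δ9-THC replicates 1 and 2 were the 3 highest libraries for each of them.

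mt-Nd6, which passed in ESCs, had 557, 568 and 1111 CPM in vehicle EpiLCs and 1073, 1051 and 443 CPM in exposed EpiLCs (log2(fold-change) 0.20, SE 0.41, edgeR, adjusted p = 0.858). mt-Cytb had 4119, 3759 and 7054 CPM against 6219, 6604 and 3224 CPM (log2(fold-change) 0.10, SE 0.34, edgeR, adjusted p = 0.913). mt-Nd4 had 1474, 1514 and 2855 CPM against 2971, 2901 and 1293 CPM (log2(fold-change) 0.29, SE 0.39, edgeR, adjusted p = 0.764). The same 3 libraries were high in all of them.

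The 3 members with an identical nuclear copy over nearly their whole length shared this pattern. mt-Co2 had 10.96, 9.81 and 18.1 CPM against 15.6, 16.9 and 8.70 CPM, and its log2(fold-change) was 0.09. mt-Atp6 had 9.48, 8.58 and 15.5 CPM against 13.5, 14.6 and 7.66 CPM, and its log2(fold-change) was 0.09. mt-Co3, which was separate in ESCs, had 12.6, 9.99 and 20.5 CPM against 15.9, 18.5 and 8.84 CPM and a log2(fold-change) of 0.01 in EpiLCs. Their adjusted p-values were 0.913 to 0.992 (edgeR).

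Whether the effect of Δ9-THC differed between the cell types was asked with an interaction term over 12 libraries. The difference of the log2(fold-changes), EpiLCs minus ESCs, ranged from -0.58 for mt-Co3 (SE 0.42) to 0.59 for mt-Nd2 (SE 0.40), and 0 of 10 members passed (smallest adjusted p = 0.559 with edgeR, and 0 at an unadjusted p under 0.05, where 13.7% of all genes lay). Of all 12410 genes in both tables, 0.0322% passed. For mt-Nd6 the difference was -0.17 (SE 0.43, edgeR, adjusted p = 0.909), so its call in ESCs was not shown to differ from its value in EpiLCs.

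Setting each member against the sum of the 10 removes the swings that the EpiLC libraries share. On this scale 3 of 10 members were separate in EpiLCs and 3 of 10 in ESCs. Of all genes, set against the same sum, 0.481% were separate in EpiLCs and 20% in ESCs, but a gene outside the members takes on their swings through the divisor, so the EpiLC figure is no like background. mt-Nd2 made up 5.85%, 6.31% and 6.002% of the members' counts with the vehicle and 7.62%, 7.27% and 7.47% with Δ9-THC, which is 6.05% ± 0.235 against 7.45% ± 0.173 (SD, n = 3). mt-Nd1 made up 11.5%, 10.9% and 10.9% against 11.8%, 12.3% and 12.9%. mt-Co1 made up 53.5%, 52.1% and 53.3% against 49.97%, 51.0% and 50.3%, so that it was lower in every exposed library. In ESCs these 3 members overlapped, and mt-Nd6, mt-Co3 and mt-Nd4 were separate instead. The members' parts sum to the whole, so that they cannot move independently. With 3 libraries per group none of these differences could go below an exact p of 0.1.

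**Figure D4:**
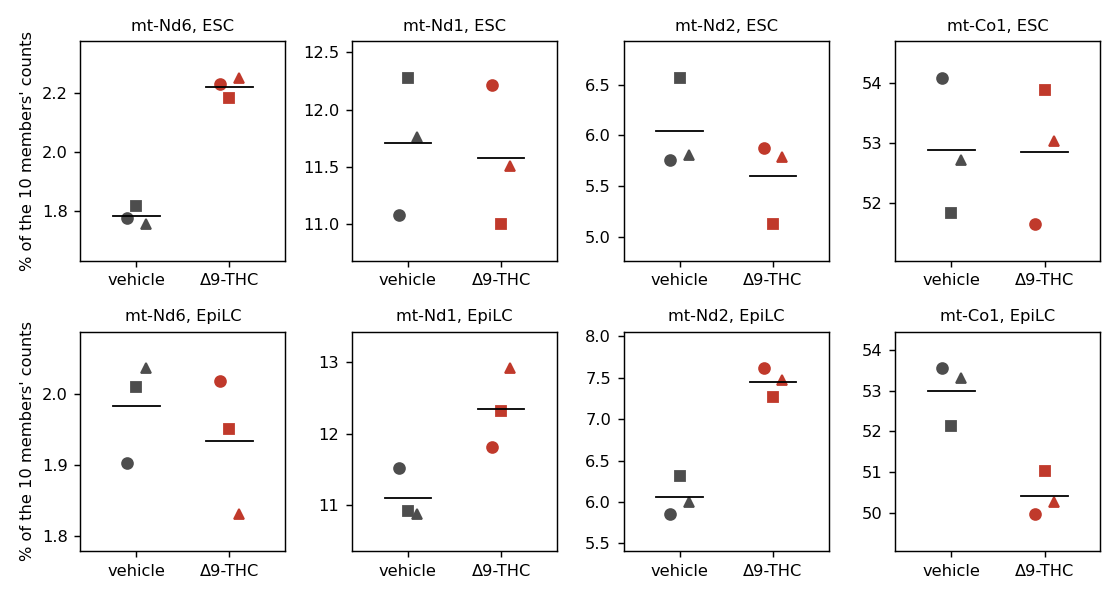
Counts of mt-Nd6, mt-Nd1, mt-Nd2 and mt-Co1 as percent of the counts on the 10 members, in each ESC library (upper row) and EpiLC library (lower row), with the group mean as a line and the same symbol for the same replicate number. Axes do not start at 0 and differ between panels; mt-Nd6 is separate in ESCs only, at 1.78% against 2.22%, and mt-Nd2 in EpiLCs only, at 6.05% against 7.45%.

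The members were higher in EpiLCs than in ESCs. As the tables of the cell types had been adjusted separately, this is a description with no test. The share of counts on the members was 2.14-fold higher with the vehicle and 2.51-fold higher with Δ9-THC, and the lowest EpiLC library was 1.34-fold above the highest ESC library. In the vehicle libraries the ratio of each gene's share of counts ranged from 2.03 for mt-Nd1 and 2.06 for mt-Cytb to 2.96 for mt-Co3 and 2.98 for mt-Atp6, with a median of 2.20. Counts of mt-Co3 and mt-Atp6 were few and uncertain between gene and copy. Their copies Gm28437 and Gm10925 had ratios of 2.99 and 3.29, and the next highest member was mt-Nd6 at 2.40. All 10 members were higher in the 6 EpiLC libraries than in the 6 ESC libraries, as were 28.9% of all genes, whose median ratio was 0.974.

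Both ribosomal RNA genes and the measured transfer RNA gene of the mitochondrial genome were on the same side. The ratios were 3.39 for mt-Rnr1 and 7.40 for mt-Tp, both higher in all EpiLC libraries. For mt-Rnr2 the ratio was 1.49, and its libraries overlapped. Nuclear genes of the same complexes had lower ratios, with the medians below. The list of 73 structural subunits of complexes I, III, IV and V held 72 measured genes, with a median ratio of 1.14 and a range of 0.496 to 2.07. Of these, 12 (16.7%) were higher in all EpiLC than in all ESC libraries and 7 (9.72%) were lower. Complex by complex the median ratio was 1.17 for the 36 genes of complex I, 1.13 for the 9 of complex III, 1.13 for the 11 of complex IV and 1.13 for the 16 of complex V. For 41 measured nuclear genes that replicate the mitochondrial DNA or make, process and degrade its RNA, the median ratio was 0.987 and the range was 0.414 to 2.20.

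**Figure D5:**
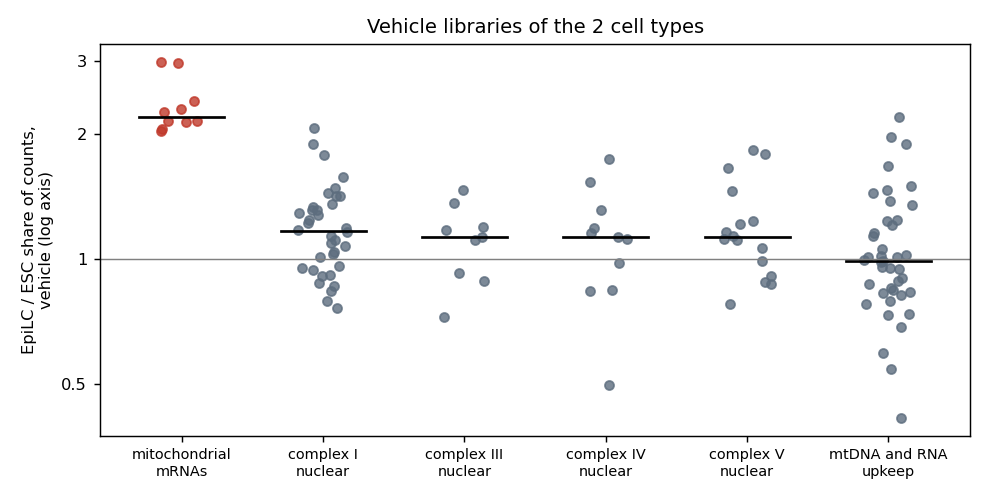
Ratio of the share of counts in vehicle EpiLCs to that in vehicle ESCs (log axis), 1 point per gene and a line at the median of each list. The 10 mitochondrial messenger RNAs lie between 2.03 and 2.98, with mt-Co3 and mt-Atp6, which had few counts, the highest. The nuclear subunits have medians of 1.13 to 1.17 and the 41 genes of mitochondrial DNA and RNA upkeep a median of 0.987.

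The same lists were counted in the comparison of Δ9-THC with the vehicle. In ESCs 3.37% of all genes were called higher and 3.55% lower. Of the 72 nuclear subunits, 0 were called higher and 1 lower. This was Ndufb6, an accessory subunit of complex I, with 28.4, 30.6 and 29.2 CPM with the vehicle and 24.8, 23.1 and 24.4 CPM with Δ9-THC (log2(fold-change) -0.29, SE 0.047, edgeR, adjusted p = 0.0304). The call of Ndufb6 was lost without any 1 ESC library. Over the 72 genes the median log2(fold-change) was -0.02, with 30 above 0 and 42 below. In EpiLCs 0 of the 72 passed, as did 0% of all genes. Of the 72, 11 had an unadjusted p under 0.05, where 15.1% of all genes did. In the DESeq2 fit 0 of the 72 passed, against 0.634% of all genes. All 72 had a negative log2(fold-change), where 6764 of all 13717 genes did. The 72 values lay between -0.33 and -0.04, with a median of -0.17. The 10 mitochondrial members were all above 0 with all 6 libraries, and 4 to 6 of them without any 1 of the 4 libraries named above. The libraries of either group that were high for the members are named above, and whether they account for the opposite signs was not tested.

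Among the 41 upkeep genes, 3 were called higher and 1 lower in ESCs, where 3.37% and 3.55% of all genes were. Tfam, which packages mitochondrial DNA and starts its transcription, had 105, 105 and 106 CPM with the vehicle and 123, 123 and 122 CPM with Δ9-THC (log2(fold-change) 0.22, SE 0.024, edgeR, adjusted p = 0.0265). Pnpt1, a ribonuclease of the mitochondrial degradosome, and Grsf1, an RNA-binding protein of the mitochondrial RNA granules, rose by smaller amounts. Pnpt1 went from 102 ± 0.503 to 113 ± 0.975 CPM (log2(fold-change) 0.15, SE 0.024, edgeR, adjusted p = 0.0304) and Grsf1 from 309 ± 3.05 to 334 ± 2.53 CPM (log2(fold-change) 0.11, SE 0.023, edgeR, adjusted p = 0.0443).

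The gene that fell was Polrmt, the mitochondrial RNA polymerase itself, with 35.4, 35.4 and 37.2 CPM against 31.5, 31.6 and 30.1 CPM (log2(fold-change) -0.21, SE 0.039, edgeR, adjusted p = 0.0368). The groups of all 4 genes were separate. The 4 calls were lost without any 1 ESC library, where at most 1 of all genes, ENSMUSG00000119584, passed. With the GC and length offsets, 0 of the 41 passed, and with DESeq2 1 did. In EpiLCs 0 of the 41 passed, and 5 had an unadjusted p under 0.05, where 15.1% of all genes did. The median log2(fold-change) of the 41 was -0.03. There, Tfam had 134 ± 9.55 CPM with the vehicle and 129 ± 9.12 CPM with Δ9-THC.

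The genes whose levels varied most like the summed level of the members were sought among 12397 genes, by the lower of the correlations over the 6 libraries of each cell type. They were Tnpo2, a nuclear import receptor (0.985), 2410002F23Rik (0.952), Mroh2a (0.952), Rcsd1 (0.951) and Dnajc25, a co-chaperone (0.944). These values describe 6 libraries each, in which same-numbered libraries mirror each other.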

How the data were processed

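RNA-seq libraries were read on both ends. The authors aligned reads with STAR to a genome that the sources name both as mm10 and as GRCm39, kept uniquely mapped reads with up to 5 mismatches, counted exons with HTSeq in union mode without strand, removed genes with low counts and applied ComBat-seq (batches not given in the sources used here). The deposited tables hold these adjusted counts, unscaled, 1 per cell type. Columns were matched to libraries by label, and 0 were left over.

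Here, genes with a total over 10 counts were fitted with edgeR 4.0.16 (R 4.3.3; quasi-likelihood test, TMM, Benjamini-Hochberg adjustment), each cell type separately and, for the interaction, 4 groups together. DESeq2 1.42.0 was an alternative, beside other scalings and filters, offsets (natural splines, 5 degrees of freedom), a replicate block and leaving out libraries. Each SE given with edgeR was derived here, as the absolute log2(fold-change) divided by the square root of the test's F statistic. Shares were compared with exact permutation tests (scipy 1.17.1). The fits were tested on simulated data with 200 changed genes and libraries drawn independently. The simulation held no tie between same-numbered libraries, so it cannot show how the fits behave under that tie. Nuclear copies were sought among GENCODE M21 transcripts (GRCm38), not the whole nuclear genome, and sequences are of that annotation. At these depths counting error matters only for mt-Co2, mt-Co3 and mt-Atp6. The members are named in full. From the other lists, the genes that passed are named, and for likeness the 5 most alike. Members and lists were chosen with earlier results of these data known.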

Additional observations from a re-analysis of the deposited data

How the results depend on the processing

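In ESCs, 1 member passed in the fit reported, and 0 passed with the replicate block, the GC and length offsets, the offsets with the replicate block, the fit of 12 libraries or without any 1 library (0 to 0), while 2 passed with DESeq2. With library totals, RLE scaling and the other filters 1 passed. The replicate numbers were not used as pairs, since no same-numbered libraries deviated together. They deviated in opposite directions, and whether the numbers were the batches that ComBat-seq removed is not given in the sources used here. A call lost under the replicate block (mt-Nd6, edgeR, adjusted p = 0.392) is not read as a weaker effect, and a call made without it takes tied libraries as independent. Over all genes of ESCs, 906 passed without and 5 with the replicate block, and 0 and 0 in EpiLCs. Of the nuclear subunits, 1 passed, with 6 under library totals, 2 with DESeq2, and 0 with the replicate block, either use of the offsets or 12 libraries. Of the upkeep genes, 4 passed, with 1 under DESeq2 and 0 with the replicate block, either use of the offsets or 12 libraries. Beside these, 1332 of all 13104 genes passed under library totals, 759 with DESeq2 and 2 or 3 with the offsets. The fit of 12 libraries called 31 of all 12410 genes in ESCs. In EpiLCs, 0 members passed in every alternative. The fit of 12 libraries called 6 of 72 nuclear subunits and 1 of 41 upkeep genes there, beside 411 of all 12410 genes. The fit by cell type called 0 of each.

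The difference in the members' share ranged from -0.0259 to 0.103 percentage points in ESCs and from 0.185 to 1.66 in EpiLCs when 1 library was left out. With the offsets, and with the offsets and the replicate block, the log2(fold-change) in ESCs turned to -0.18 and -0.18 for mt-Nd1, -0.10 and -0.10 for mt-Co1, -0.069 and -0.069 for mt-Nd5 and -0.13 and -0.13 for mt-Cytb, and in EpiLCs to -0.0092 and -0.0022 for mt-Co3. Without 1 library, ESC values spanned 0 for mt-Nd2 (-0.11 to 0.012) and mt-Nd4 (-0.072 to 0.020). EpiLC values did so for mt-Co1 (-0.045 to 0.54), mt-Co2 (-0.10 to 0.40), mt-Atp6 (-0.088 to 0.40), mt-Co3 (-0.22 to 0.35), mt-Nd6 (-0.0082 to 0.61) and mt-Cytb (-0.086 to 0.44). The causes of these changes were not tested. With 3 libraries per group, exact tests cannot pass, and the SE of about 0.3 to 0.45 in EpiLCs leaves changes of that size undetectable.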
